A study of Mus musculus with 8 samples.

Results

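Binding of the transcription factor ZFP281 was examined at 5 genes: Zfp281 itself, its paralogue Zfp148, and the Tet genes Tet1, Tet2 and Tet3. The genes were taken by name, 5 of the 21887 protein-coding genes of the RefSeq table (mm10). A binding summit, the single base at which a called peak is highest, was assigned to a gene when it lay in the gene or within 20 kb of either end. The material was spheres of the MMTV-HER2/Neu mouse on the FvB background, in which the MMTV promoter drives the HER2/Neu oncogene in mammary epithelium. Early lesion (EL) spheres came from mice of 14 to 18 weeks with no palpable tumor, primary tumor (PT) spheres from tumor-bearing mice older than 20 weeks, and both were grown for 7 days without attachment in mammosphere medium. Each group had 3 ZFP281 libraries and 1 input. The labels call the libraries biological replicates without saying which animals they came from, so a p-value measures the spread between these libraries. The tissue is labelled mammary lung for EL and breast tumor for PT, and the cell type of both is breast cancer cells.

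ZFP281 is a C2H2 zinc finger protein that binds G-rich DNA and is known from the maintenance of pluripotency and the exit from it. ZFP148, also called ZBP-89, is its closest relative, with similar zinc fingers and a similar taste for G-rich sites. The TET enzymes oxidise methylated cytosine, the first step of active DNA demethylation. TET1 and TET3 carry a CXXC domain that binds CpG DNA, whereas TET2 lacks it, and the separate protein CXXC4 carries such a domain. In mouse embryonic stem cells ZFP281 is known to associate with TET1 and to lower Tet2 expression through the miR-302/367 cluster.

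The lists held 7055 to 15770 summits in EL and at most 6033 in PT, so a gene had more chances of a summit in EL. Read depth is unknown. For this reason numbers were also taken from the top-scoring summits after cutting each list to the length of the shortest, that of PT replicate 1, and the score was read only as a percentile or rank within its own list. Percentiles and ranks of lists of different length are set side by side as a description and show no change. Values are given in the order of replicates 1, 2 and 3 throughout. A gene is called bound in a group below when 2 or more of its 3 libraries had a summit within 20 kb. Of the markers looked at, EL and PT bound, in this order, 4 and 2 of 10 lung epithelial genes, 4 and 6 of 10 mammary epithelial genes, 6 and 1 of 8 fibroblast genes and 1 and 1 of 6 leukocyte genes, where 36.4% and 21.6% of all protein-coding genes were bound. A summit does not measure expression, so the tissue labels could not be checked. The part of such cells in the values below was not tested.

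The upstream sequences show the G-rich letters that could be searched at these genes. The motif GGGAGGGG, on either strand, was found in 12.2% of 32851 RefSeq promoters of 300 bases (GRCm38.p6), and the longer GGGGAGGGG, which contains it, in 6.37%. Of the 303 promoter windows that held a summit in all 6 libraries, 67.0% had the shorter and 62.0% the longer motif, against 9.98% and 4.50% of the 30320 windows with a summit in no library. All 5 genes had a promoter entry, Zfp148 with 2 starts. The entries of Tet1, Tet2 and Tet3 use a start inside the gene, after the outer start from which distances are given below. That of Tet3 does not reach its leading region described below, so the motif was not searched there. The 250 bases before the start of Zfp281 (chr1:136624651-136624900, plus strand) are shown because 1 summit lay in them, and those before the listed start of Tet2 (chr3:133544391-133544640, minus strand) because that gene had no summit at all. For Zfp148, 30 bases (chr16:33380923-33380952, plus strand) are shown around the match nearest its summit in every library except PT replicate 3. They hold 2 of the summits and were read from the promoter entry of the divergent non-coding gene 1700007L15Rik. A second stretch of 30 bases (chr16:33381059-33381088, plus strand) comes from the entry of the second Zfp148 start. Capitals mark GGGAGGGG or its reverse complement. A match describes the letters and is not evidence of a bound site.
Zfp281 upstream: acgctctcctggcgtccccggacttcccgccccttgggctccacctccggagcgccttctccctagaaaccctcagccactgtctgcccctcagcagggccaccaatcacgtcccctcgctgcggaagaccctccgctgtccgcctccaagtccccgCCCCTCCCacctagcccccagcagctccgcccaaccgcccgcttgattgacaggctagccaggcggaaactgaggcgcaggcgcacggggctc
Tet2 upstream: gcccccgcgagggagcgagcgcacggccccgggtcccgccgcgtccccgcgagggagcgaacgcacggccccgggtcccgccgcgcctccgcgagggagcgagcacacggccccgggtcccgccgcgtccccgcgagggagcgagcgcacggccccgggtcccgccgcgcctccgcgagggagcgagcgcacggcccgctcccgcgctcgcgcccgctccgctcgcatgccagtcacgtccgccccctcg
Zfp148 after the first start: aaaagttctctCCCCTCCCcctcgccctcc
Zfp148 before the second start: ggagggcggGGGAGGGGAGGGGgcggcgcg

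Among the 5 genes, ZFP281 summits recurred close to the start of Zfp281, Zfp148 and Tet3, lay away from the start at Tet1, and were absent at Tet2. Summits within 20 kb were found in all 6 libraries for Zfp281, Zfp148, Tet1 and Tet3, a pattern of 13.0% of all protein-coding genes. Tet2 had none in any library, as did 48.6% of all genes. Summits lying 200 bp or less apart were merged across libraries, which gave 13 regions at the 5 genes. Of these, 4 were found in all 6 libraries and 1 in all 3 EL and no PT library. The number found in all 3 PT and no EL library was 0. Over all 19317 regions the shares of these classes were, in the same order, 8.14%, 10% and 0.704%. With a share that low, 0 of 13 regions shows no lack of the last class at the 5 genes.

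**Figure D1:**
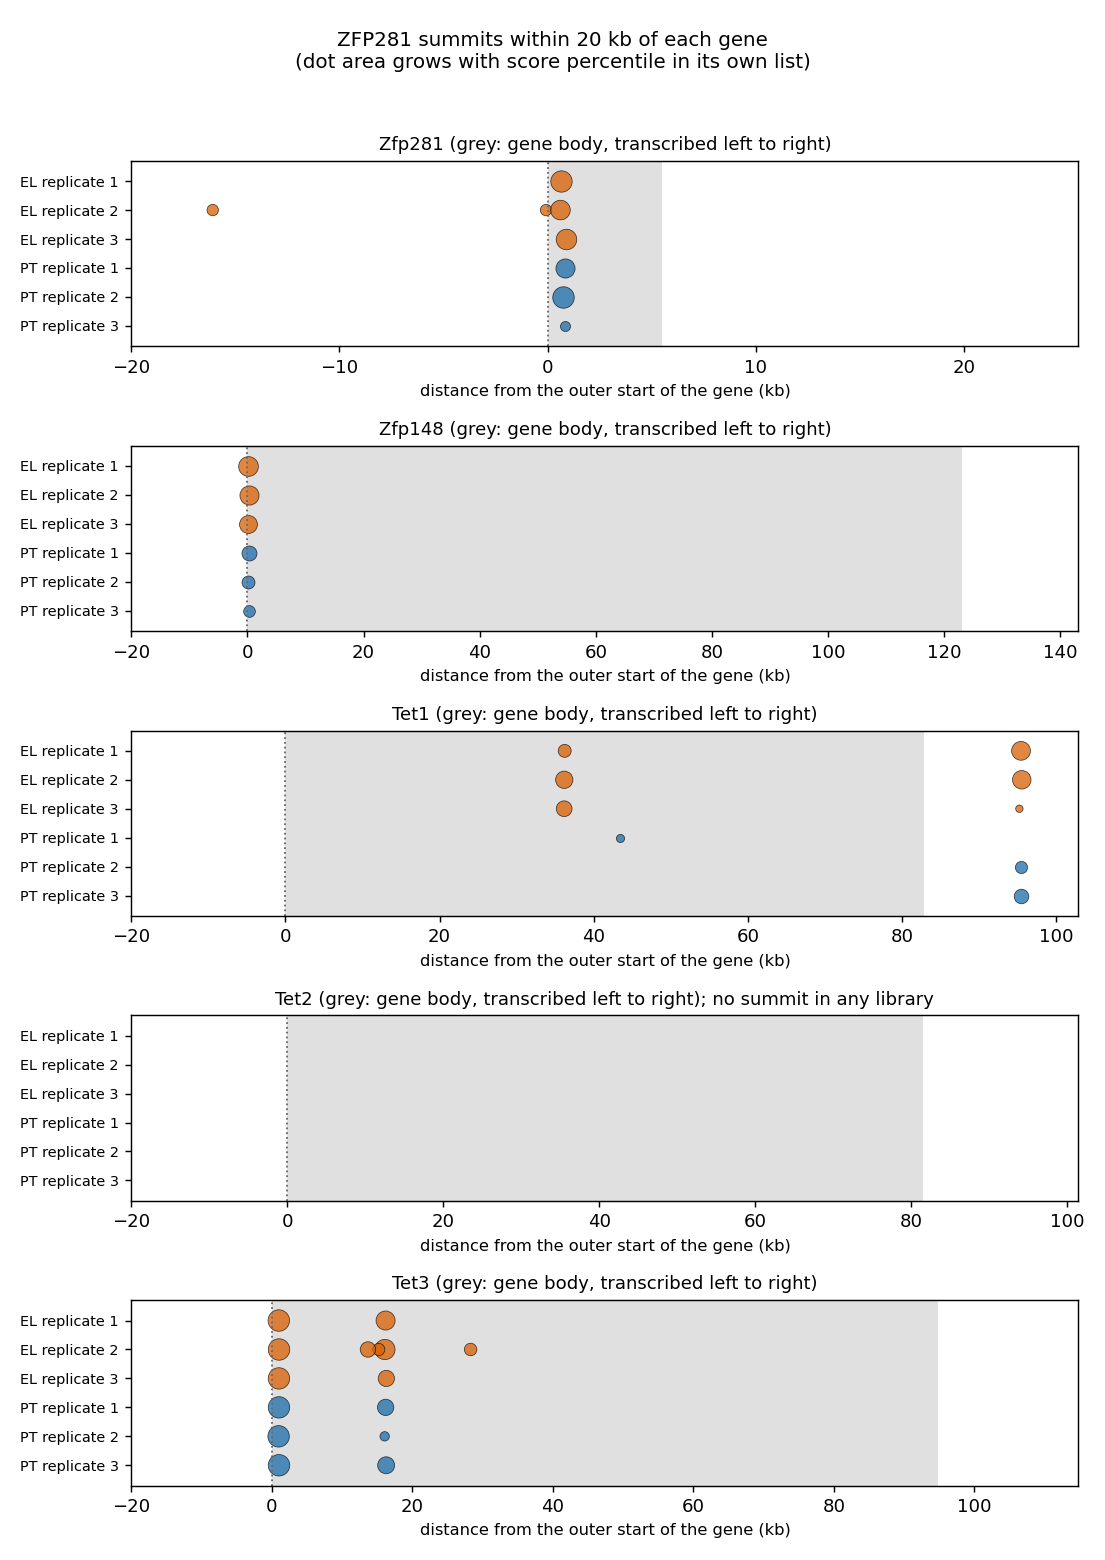
Position of each ZFP281 summit (dots) along the 5 genes, as the distance in kb from the outer start of the gene in the direction of transcription, with 1 row per library, EL in orange and PT in blue. The 6 libraries line up just inside the start of Zfp281, Zfp148 and Tet3, the 3 EL libraries alone share a position 36.2 kb into Tet1, and the Tet2 panel is empty.

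Zfp281, the gene of the immunoprecipitated factor, carried a summit in every library within 267 bp. The gene lies on chromosome 1 from 136624901 to 136630391, plus strand, and the shared region ran from 136625513 to 136625780, 612 to 879 bp after the start and inside the gene. In EL its summits ranked 143, 2839 and 695, which are percentiles of 98.3, 81.6 and 90.1. In PT the ranks were 657, 3 and 5088, at percentiles of 77.1, 99.9 and 14.7. The EL libraries thus held it high in their lists, while the PT libraries ran from near the top to near the bottom, and the groups overlapped. The deposited scores behind the PT values were 18.6, 165.8 and 4.1.

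This spread in PT was wide for a region present in every library. The Zfp281 region covered 85.3 percentile points over the 3 PT lists, and of the 1573 regions found in all 6 libraries only 3, itself included, covered as many. The median range was 21.1 points, and the PT lists differ in length. The plot of these ranges shows the other shared regions of the 5 genes further to the left. PT replicate 3 had the low value, and PT replicate 1 stood between it and PT replicate 2.

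**Figure D2:**
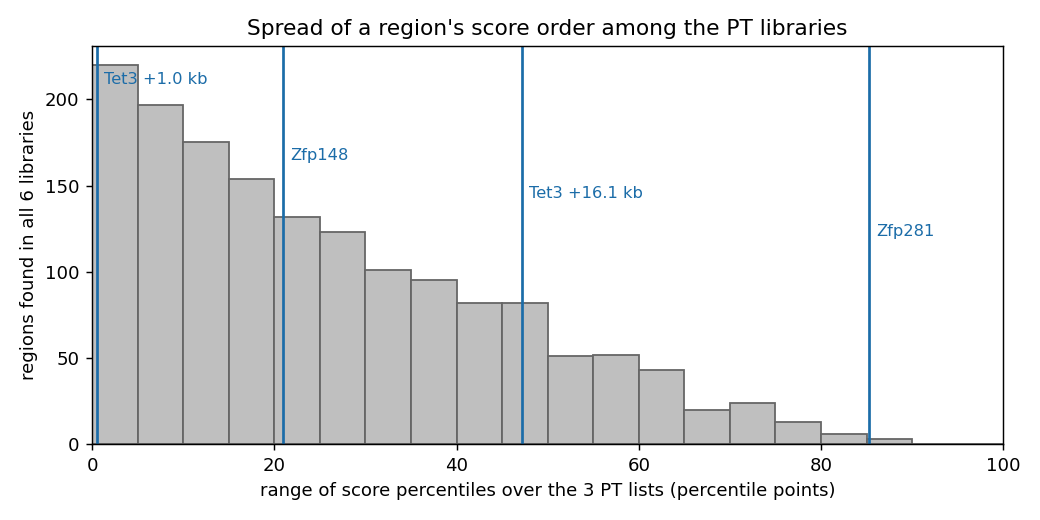
Number of regions (bars) by the range of their score percentile over the 3 PT lists, for the 1573 regions found in all 6 libraries, with lines at the 4 such regions of Zfp281, Zfp148 and Tet3. Zfp281 lies at 85.3 points in the thin right end, and the Tet3 region 1.0 kb after the start lies at 0.5 points.

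EL replicate 2, which has the longest list, added 2 weak summits at Zfp281. Both had a score of 5.3 and a percentile of 21.4. The summit at 136624820 lay 81 bp before the start, inside the printed sequence and 5 bp from its CCCCTCCC match. The summit at 136608814 lay 16.1 kb before the start. No other library had a summit at either place, and in the other 5 libraries the nearest summit was 723 to 965 bp from that match. Bases under the shared region are not printed, since the promoter entry ends before it. Just beyond the 20 kb limit, a region 37.4 to 37.5 kb after the start held summits of 3 EL and 2 PT libraries and lay in the non-coding genes Gm34056 and Gm41958.

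In numbers, Zfp281 had 1, 3 and 1 summits within 20 kb in EL and 1 in each PT library, 1.67 ± 1.15 against 1 ± 0 (SD, n = 3 each; exact permutation p = 1, two-sided). The groups overlapped, and without EL replicate 2 the difference was 0. In the lists of equal length the gene kept 1 summit in each library except PT replicate 3, which had 0.

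Zfp148 resembled Zfp281 in having a single shared region just after its start, on chromosome 16 from 33380926 to 33381014, in a gene that spans 33380775 to 33503903 on the plus strand. The 6 summits lay 151 to 239 bp after the start, within 88 bp of each other, and the gene, 123.1 kb long, had no other summit. The EL libraries had them at percentiles of 82.4, 77.2 and 66.1, the PT libraries at 43.9, 30.5 and 23.0. These percentiles come from lists of unequal length, and by rank the groups overlapped. EL ranks were 1500, 3583 and 2374, and those of PT 1616, 2659 and 4629.

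The Zfp148 summits stood beside G-rich letters. The CCCCTCCC match in the first printed stretch, from 33380934 to 33380941, lay 21, 57 and 8 bp from the EL summits. It lay 59, 4 and 73 bp from those of PT. The second stretch, with 2 overlapping matches, began its first match at 33381068, which was 54 to 142 bp beyond the summits. The summits thus fell in or beside the interval from the first match to the second. The number of summits was 1 in each of the 6 libraries (exact permutation p = 1, two-sided), and at equal list lengths EL had 1, 0 and 1, PT 1, 1 and 0.

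Tet3, the TET enzyme of the oocyte and of neural tissue, carried the region whose lowest percentile was the highest of the 5 genes and whose range over the libraries was the smallest of their 4 shared regions. The gene spans 83362373 to 83457208 on chromosome 6, minus strand, and the leading region ran from 83456173 to 83456233, 975 to 1035 bp after the outer start. EL libraries ranked it 35, 75 and 74, PT libraries 28, 24 and 28. All 6 percentiles were between 98.9 and 99.6, and a region this near the top of every list can have only a small range. Ordered by the lowest percentile in any list, this region stood at place 18 of the 1573 regions found in every library.

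The mean rank of the leading Tet3 region was 61.7 ± 23.1 over the EL lists, and over the PT lists 26.7 ± 2.31 (SD, n = 3 each). Every PT rank was ahead of every EL rank (exact permutation p = 0.1, two-sided, the smallest that 3 against 3 libraries allow). Cutting the lists to equal length does not alter ranks this near the top, so they remain ranks from lists of unequal length. The p-value therefore cannot decide whether the groups differ. Of the 996 regions in all 6 cut lists, 13.9% had every PT rank ahead and 18.0% every EL rank ahead. EL replicate 1, at 35, stood close to the PT libraries. In percentiles of the full lists the groups overlapped, with EL at 99.6, 99.5 and 98.9, PT at 99.0, 99.4 and 99.5.

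A second Tet3 region, also in all 6 libraries, lay deeper in the gene. It ran from 83440899 to 83441136, 16.1 to 16.3 kb after the outer start and 542 to 779 bp after an annotated internal start of Tet3 at 83441678. The EL libraries had it at percentiles of 76.6, 87.5 and 53.2, the PT libraries at 53.7, 11.6 and 58.8. The groups overlapped, and PT replicate 2 held the lowest value. Like the leading region it was present in 6 of 6 libraries, and it sat lower in every list. The 300 bases around the internal start held no GGGAGGGG match, and the entry of B230319C09Rik, a non-coding gene that starts there on the other strand, held 1, which was 386 to 623 bp from the summits.

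EL replicate 2 again added summits that no other library had, 13.7, 15.2 and 28.3 kb after the outer start of Tet3, at percentiles of 47.2, 26.0 and 27.8. Tet3 had 2, 5 and 2 summits in EL, and 2 in each PT library, 3 ± 1.73 against 2 ± 0 (SD, n = 3 each; exact permutation p = 1, two-sided). Without EL replicate 2 the difference was 0. At equal list lengths EL had 2, 2 and 1, PT 2, 1 and 2.

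**Figure D3:**
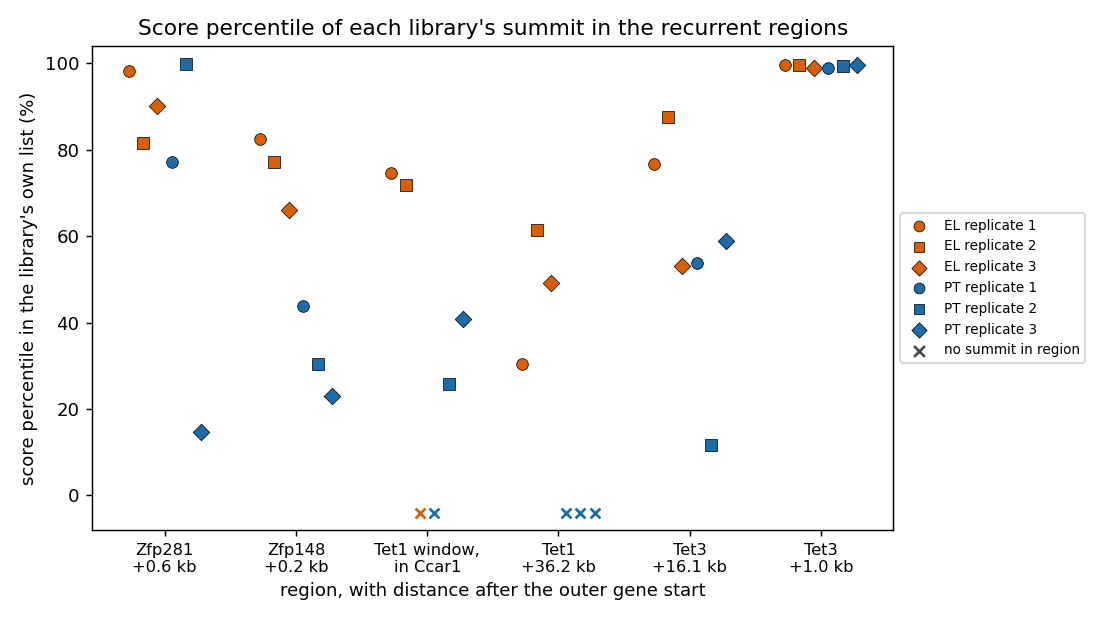
Score percentile (0 to 100, within each library's own list) of the summit of each library, EL in orange and PT in blue, in the 6 regions of the 5 genes with summits of at least 3 libraries, and crosses for libraries with none. Tet3 at 1.0 kb holds 98.9 to 99.6 in every library, Zfp281 drops to 14.7 in PT replicate 3, and at Ccar1 the cross of EL replicate 3 stands for a summit 214 bp outside the region.

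Tet1, the TET enzyme of embryonic stem cells and germ cells, had no summit near its start. The gene spans 62804570 to 62887469 on chromosome 10, minus strand, and the summit closest to its outer start lay 36.2 kb inside it. That region, from 62851233 to 62851300, held summits of the 3 EL libraries within 67 bp and of no PT library, at percentiles of 30.4, 61.3 and 49.2. None of these summits remained after the lists were cut to equal length, their ranks being 5600, 5895 and 3397. In PT only replicate 1 had a summit in the gene, 43.5 kb after the start, with a percentile of 6.7.

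The other summits counted for Tet1 belonged to a neighbour. They lay 12.3 to 12.6 kb beyond the end of Tet1 and 129 to 438 bp after the start of Ccar1 (chromosome 10, 62743928 to 62792368, minus strand), which encodes a regulator of cell cycle and apoptosis. The EL libraries had them at percentiles of 74.5, 71.8 and 3.7, and PT replicates 2 and 3 at 25.9 and 40.9. PT replicate 1 had none. Presence in all 6 libraries at Tet1 thus came from different places, since PT replicates 2 and 3 had a summit only in Ccar1 and PT replicate 1 only inside Tet1.

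Tet1 was the only one of the 5 genes whose numbers did not overlap between groups in full lists. It had 2 summits within 20 kb in each EL library and 1 in each PT library (two-sided exact permutation p = 0.1, which no 3 against 3 libraries can go below; Benjamini-Hochberg adjusted p = 0.54 over 11259 genes with a summit). Of those genes, 18.0% had more summits in every EL than in every PT library and 0.533% the reverse, so the pattern was a common one in full lists. At equal list lengths EL and PT each had 1, 0 and 0 summits at Tet1, that of EL replicate 1 in Ccar1 and that of PT replicate 1 inside Tet1. In these lists 7.58% of 6111 genes were higher in every EL and 6.55% in every PT library. The list of PT replicate 1 is uncut and kept its summit at percentile 6.7, whereas EL replicate 2 lost summits at 71.8 and 61.3. The difference in number was therefore not detectable in lists of equal length. Since the cut falls at unlike places in the lists, the equal numbers do not show that the groups agree.

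Tet2 was free of summits over a long stretch. The gene spans 133463677 to 133545136 on chromosome 3, minus strand, and the nearest summit of any library lay 229 kb away, in PT replicates 2 and 3, on the side of the gene end. The distance was 470 kb in PT replicate 1, and 602, 532 and 691 kb in EL. No library had a summit within 50 kb. The median distance of all protein-coding genes to a summit of any library was 17.7 kb, and 16.5% of them were at least as far as Tet2. Among the 3075 genes at least as long as Tet2, 30.2% had no summit within 20 kb. The absence was thus not rare, and it does not separate a lack of binding from binding below the limit of the lists.

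The printed Tet2 sequence was rich in G and C but held no match to the motif. Its 250 bases were 83.6% G or C, against 69.6% before Zfp281, and the median of all promoters was 52.4%. These bases lie inside the gene span given above, since the listed start, at 133544390, is not the outer start at 133545136. No match says only that these letters are not in this window.

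**Figure D4:**
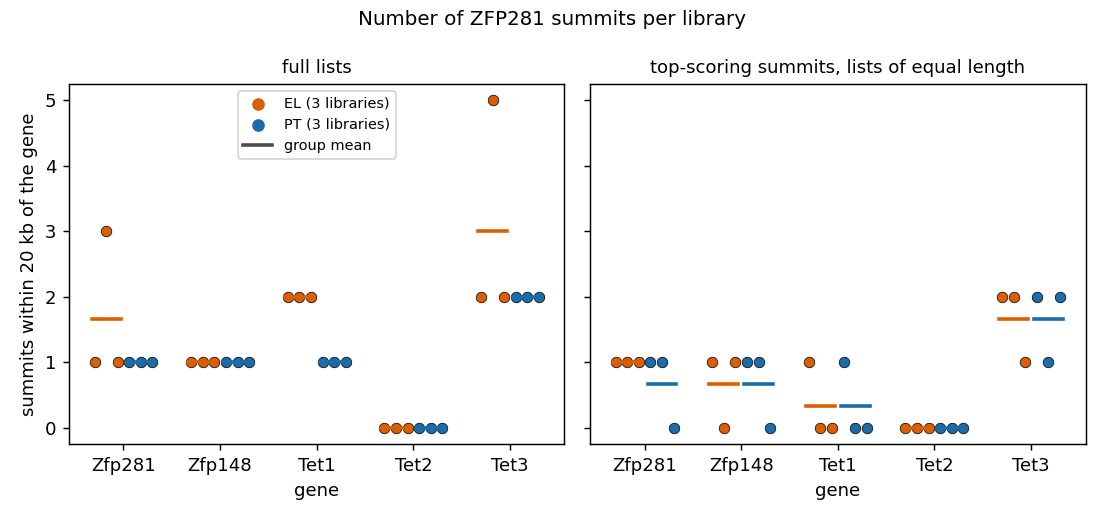
Number of ZFP281 summits within 20 kb of each gene, 1 point per library (EL orange, PT blue) and a bar at the mean of each group of 3, in full lists on the left and in lists cut to equal length on the right. In full lists the Tet1 points of EL (2) and PT (1) are apart and EL replicate 2 stands out at Zfp281 (3) and Tet3 (5); at equal length no gene keeps the groups apart.

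Cutting the lists to equal length also thinned presence. Zfp281 then had a summit in 5 libraries, Zfp148 in 4, Tet1 in 2, Tet2 in 0 and Tet3 in 6, so Tet3 alone of the 5 genes kept all of them, where 8.76% of all genes had a summit in all 6. The leading Tet3 region was the single one of the 4 shared regions left in every list. The Zfp281 summit of EL replicate 2, at rank 2839, was only just inside the limit, and the Ccar1 summit of PT replicate 2, at rank 2973, only just outside.

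ZFP281 summits also lay at many other genes of the DNA methylation pathway, as a count with no test. Of 38 such genes, 20 were bound in EL and 14 in PT, that is 52.6% and 36.8% against 36.4% and 21.6% of all protein-coding genes. A total of 12 of the 38 had one in all 6 libraries and 11 in none, as did 13.0% and 48.6% of all genes. At equal list lengths 12 genes were bound in each group, 31.6% against 16.9% and 16.2% of all genes. Numbers were higher in every EL library for 7 of the 27 genes with a summit in full lists (Dnmt1, Dnmt3l, Uhrf2, Tdg, Sin3a, Cxxc5 and Idh2) and for 3 of 15 at equal lengths (Uhrf2, Zbtb33 and Cxxc5). They were higher in every PT library for 0 and 1 (Neil2). Over all genes with a summit the shares were 18.0% and 7.58% for EL and 0.533% and 6.55% for PT.

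Among the genes that write or maintain methylation, 5 of 6 were bound in EL and 2 of 6 in PT, and the counts by role that follow stand against the same 36.4% and 21.6% of all genes. The maintenance factor gene Uhrf1 and the de novo methyltransferase gene Dnmt3a had summits in all 6 libraries, with lowest percentiles of 30.5 and 7.0. Uhrf2 (the relative of Uhrf1), Dnmt1 (the maintenance methyltransferase gene) and Dnmt3l had them in the 3 EL and no PT libraries. That pattern was found at 1136 of 21887 protein-coding genes. In the order named, the lowest EL percentiles were 74.5, 63.9 and 22.7. At equal list lengths Uhrf2 had summits in 3 EL libraries, Dnmt1 in 2 and Dnmt3l in 0, and none of them in PT. In those lists 360 of the 21887 genes had summits in 3 EL and no PT libraries. Dnmt3b, the other de novo enzyme gene, had none in any library.

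Genes of removal and repair of modified bases were bound for 5 of 13 in EL and 4 of 13 in PT, or 38.5% and 30.8%. The stress genes Gadd45g and Gadd45b were in all 6 libraries, with lowest percentiles of 65.0 and 48.5, and so was the glycosylase gene Neil2, at 7.7. Tdg, the glycosylase that excises the bases TET enzymes produce, had a summit in the 3 EL libraries alone, as did 1136 of 21887 genes. Its lowest percentile was 48.6, and it had no summit at equal list lengths. Of the readers of methylated DNA, 4 of 7 were bound in EL and 3 of 7 in PT, with Zbtb4 and Mbd2 in all 6 libraries at lowest percentiles of 83.8 and 49.8.

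Of the TET partners and cofactor enzymes, 6 of 12 were bound in EL and 5 of 12 in PT. Cxxc5, Idh1, Sin3a, Idh2 and Cxxc4 were in all 6 libraries, with lowest percentiles of 77.8, 47.9, 30.6, 25.3 and 25.0. Idh1 and Idh2 encode isocitrate dehydrogenases that make the 2-oxoglutarate TET enzymes need. Cxxc4, which encodes a separate protein with the kind of domain TET2 lacks and lies on the same chromosome as Tet2, had best percentiles of 42.4, 66.5 and 42.5 in the EL libraries. Its best percentiles in PT were 25.0, 68.8 and 30.5. Tet2 and Cxxc4 thus differed, with a summit in no library at the former and in all 6 at the latter. Ogt, whose product binds TET2 and TET3, had none.

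Genes with the most similar values were taken by the Euclidean distance over 6 libraries of the best percentile within 20 kb, up to 3 for each of the 4 bound genes. A library without a summit counted as 0, so a similar gene need not have a summit in every library. For Tet3 they were Bmpr1a and 9230112D13Rik, at 0.4 percentile points, and Rasgrp4 at 0.5. For Tet1, whose best summits lay in Ccar1 in 4 libraries, they were Slc27a4 and Urm1 at 10.4 and Tfdp2 at 12.1, each with 0 in PT replicate 1. For Zfp148 they were Cabin1 at 21.2 and Tmem59l at 21.8. For Zfp281 the closest, Sdk2, with 0 in PT replicate 3, was 31.0 points away, and Asap3 and Tcea3 followed at 36.3. Genes named together at 1 distance had identical values in each library.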

How the data were processed

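Chromatin immunoprecipitation of ZFP281 was sequenced in paired reads of 150 bp from 3 EL and 3 PT libraries. The submitters' processing notes name the mouse build mm10, Picard and Bowtie2 2.3.4.3. Which caller made the peaks, and how inputs entered, is not given in the sources used here. Each deposited list holds the summits of 1 library, with a score read here as the −log10 of a q-value, since all deposited scores lie above 1.30, the −log10 of 0.05. That reading comes from the values. It is the authors' value and served only to rank summits within a list.

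Positions are 1-based, and summits outside chromosomes 1 to 19, X and Y were left out. A percentile is the share of a list with a lower score. Genes and promoters came from RefSeq tables of GRCm38.p6, the mm10 build, and all 5 genes matched. Exon, intron and untranslated borders were not used here. A summit near several genes was assigned to each of them. Numbers were compared with the exact permutation test over 20 relabellings for each gene with a summit, with Benjamini-Hochberg adjustment over all genes tested, in Python 3.11.15 with numpy 2.4.6. The counting and the test were tested on simulated data.

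The genes, lists and tests were chosen with earlier results of these data known. Named genes were the 5 genes, genes of the pathway list (first up to 4 per role, by libraries bound and then by lowest percentile), neighbours holding a region, and the 3 most similar genes each, of which 1 is not reported here. The Tet3 ranks, the range over PT lists and the lookup of the miR-302/367 cluster were added after seeing the data. Alternatives were other list limits, windows, merging distances, scales, libraries left out and a replicate block.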

Additional observations from a re-analysis of the deposited data

How the results depend on the processing

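Tet2 stayed at 0 in every library and alternative. Taken per 10000 summits of the same list, the difference EL minus PT turned to -1.04 at Zfp281, -0.386 at Tet1 and -2.28 at Tet3, and Zfp148, at 0 in full lists, moved to -1.46. This scale divides by the list length, and the EL lists are longer. Zfp148 had 1 summit in every library, so its value comes from that division alone. At equal list lengths the difference was 0 at Tet1 and Tet3, with 2 libraries bound at Tet1. With scores of at least 10 it was 0 at Tet3 and 1 at Zfp148, with 3 libraries bound at Zfp148 and 2 at Tet1. In the gene body alone it was 0 at Zfp281. Without 1 library it ranged from 0 to 1 at Zfp281 and from 0 to 1.5 at Tet3, in each case 0 without EL replicate 2, and stayed at 1 at Tet1 and 0 at Zfp148. Regions in all 6 libraries numbered 2 with merging at 50 bp and 1 at equal list lengths, and EL-only regions 0 in both. Merging at 50 bp split the shared Zfp281 region and the second Tet3 region. The pathway genes bound in EL fell to 12 at equal list lengths. At the leading Tet3 region, EL minus PT in the distance from the top of the full list was -0.0267 percentile points. EL was thus marginally nearer the top by this measure. By rank without 1 library the difference ranged from 28.3 to 48.3, with PT nearer the top. Beyond the division by list length, and that a shorter list or a smaller window leaves fewer summits, the cause of these changes was not tested. Replicate numbers are shared by the groups. Deviations of same-numbered libraries over 11259 genes correlated at -0.001, -0.024 and -0.112, and those of differently numbered libraries at -0.116 to 0.149. These values show no pairing by number, but with so few libraries they cannot exclude one. With the replicate block the differences were 0.667, 0, 1, 0 and 1 at Zfp281, Zfp148, Tet1, Tet2 and Tet3, with exact p of at least 0.25, the smallest it allows. Depth is unknown, so absence of a summit is no measure of absent binding.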

Other observations

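The miR-302/367 cluster, through which ZFP281 is known to lower Tet2 in embryonic stem cells, was looked up after the other values were seen. It lies on chromosome 3 in Larp7, a gene that spans 127536714 to 127553349. No library had a summit within 20 kb of Larp7. The nearest lay 175, 152 and 237 kb away in EL replicates 1, 2 and 3 and 940, 237 and 343 kb away in PT replicates 1, 2 and 3. Both the cluster and Tet2 were thus without a summit within 20 kb in these spheres.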
